A study of Mus musculus with 4 samples.

Results

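Histones are the proteins around which DNA is wound. H2A, H2B, H3 and H4 form the core of the nucleosome, and H1 binds the DNA that links nucleosomes. The replication-dependent histone genes supply them in bulk during S phase, when new chromatin has to be assembled. Most of these genes have a single exon, lie in clusters, and give mRNAs that end in a short hairpin instead of a poly(A) tail. A few members are used in the male germ line, where Hist1h2ba (TH2B), Hist1h2aa (TH2A) and Hist1h1t (H1t) supply testis forms of H2B, H2A and H1.

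The genes described here are the 67 protein-coding genes of GENCODE M21, of 21938 on chromosomes 1 to 19, X and Y, whose symbol begins with Hist1h, Hist2h, Hist3h or Hist4h. Of these, 6 encode H1, 18 H2A, 18 H2B, 12 H3 and 13 H4. Hist1 holds 54 of them on chromosome 13, in 4 stretches of the mm10 genome. The first stretch has 18 members (chr13:21715763-21837530), the second 5 (chr13:22035164-22043676), the third 29 (chr13:23531050-23764406) and the fourth only the pair Hist1h2ba and Hist1h2aa (chr13:23933773-23934851). Hist2 holds 10 members on chromosome 3 (chr3:96219865-96270132), Hist3 holds 2 on chromosome 11 (chr11:58948920-58956830) and Hist4 holds Hist4h4 on chromosome 6 (chr6:136801553-136804415).

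Methylation was measured by reduced representation bisulfite sequencing (RRBS), in which DNA is cut by MspI at CCGG and unmethylated cytosines are converted, so that the share of reads still showing cytosine gives the methylation level of a CpG. ESCs and neurons of the lines R1 and Tet/Tet gave 1 library each, 4 in all. R1 is a wild-type mouse embryonic stem cell (ESC) line. Tet/Tet is a line derived from R1 in which tet-off cassettes were knocked in at Dnmt1, the gene of the maintenance methyltransferase, and which the study describes as overexpressing DNMT1. The Tet/Tet ESCs were kept in puromycin at 1 µg/ml and neomycin at 150 µg/ml. Neurons were obtained from each line through 2 days as embryoid bodies and 10 to 15 days in neural medium per the labels, and the study describes a majority of neurons, not a pure culture. Per the labels, the sample codes of the ESC libraries have another prefix than those of the neuron libraries, and DNA came from ESCs by phenol and chloroform but from neurons by a commercial kit, so cell type and these differences in handling cannot be told apart. The start regions of pluripotency genes, 500 bp to either side of the start site, were used as a check of the cell types. Dppa4 was at 3.84% in ESCs of R1 and 2.19% in those of Tet/Tet, then 86.3% in neurons of R1 and 14.5% in those of Tet/Tet. Pou5f1 was at 1.47%, 12%, 41.2% and 4.76% in the same order. Zfp42 was at 0% in both ESC libraries and 46.3% in R1 neurons, with no listed site in Tet/Tet neurons. Nanog had at most 4 listed sites in any library. Pou5f1 was lower in Tet/Tet neurons than in Tet/Tet ESCs and only Dppa4 was higher, so the check is weak for the Tet/Tet neurons. RRBS does not measure RNA, so neuronal marker expression could not be read.

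The level of a gene is the unweighted mean over the CpG sites listed in the gene and 500 bp on either side, where at least 5 sites were listed. Where 4 values stand together without names, they follow the order R1 ESCs, then Tet/Tet ESCs, then R1 neurons, then Tet/Tet neurons. The SD given beside a level is the spread over sites, or over genes where a group of genes is described. With 1 library per condition no replicate error is known, and no test was made between libraries. The tables hold no read counts, so the depth behind each site is unknown and no interval could be given. In the member windows, 56.0% of the sites listed in ESCs of R1 and 62.1% in those of Tet/Tet, then 73.3% in neurons of R1 and 77.5% in those of Tet/Tet were at exactly 0 or 100%.

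The member windows held 4863 distinct CpGs. In ESCs 755 of them (15.5%) were listed for R1 and 999 (20.5%) for Tet/Tet, and in neurons 1796 (36.9%) for R1 and 1664 (34.2%) for Tet/Tet. Members with at least 5 listed sites numbered 45, 54, 63 and 61 in these libraries, and 42 members had them in all 4. Genes of this family are near copies of each other. The 50 bases around a CpG, with every C read as T as in a converted read, occurred once in the genome on both strands for only 46.2% of member CpGs. Such unique CpGs were listed more often than the others, 21.9% against 10.1% in R1 ESCs and 50.0% against 25.7% in R1 neurons. Hist1h2bq and Hist1h2br (H2B) and Hist1h2ao and Hist1h2ap (H2A), whose windows hold no unique CpG, had no listed site in any library, except 3 sites of Hist1h2br at 100% in R1 neurons. They have no level here.

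Promoters of 4 members are shown to compare their CpGs: a testis H2B, the testis H1, an H2B of a divergent pair outside the germ-line set, and an H4. Each runs from 250 bases before to 50 bases after the start given by RefSeq (GRCm38.p6), 5′ to 3′ on the strand of the gene, with every CpG in capitals.
Hist1h2ba (chr13:23934107-23934406, minus strand, 7 CpGs): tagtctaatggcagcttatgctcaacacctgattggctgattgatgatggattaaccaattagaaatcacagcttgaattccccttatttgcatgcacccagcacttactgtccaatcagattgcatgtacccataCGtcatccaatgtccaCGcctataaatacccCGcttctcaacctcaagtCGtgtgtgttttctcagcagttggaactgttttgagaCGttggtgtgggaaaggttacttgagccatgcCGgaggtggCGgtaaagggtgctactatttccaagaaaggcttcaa
Hist1h1t (chr13:23695561-23695860, plus strand, 10 CpGs): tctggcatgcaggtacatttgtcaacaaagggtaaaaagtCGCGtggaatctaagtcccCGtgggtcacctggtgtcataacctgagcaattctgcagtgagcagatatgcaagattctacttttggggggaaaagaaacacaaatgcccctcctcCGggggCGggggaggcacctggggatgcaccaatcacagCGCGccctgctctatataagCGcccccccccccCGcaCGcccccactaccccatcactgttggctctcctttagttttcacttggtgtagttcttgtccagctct
Hist1h2bf (chr13:23574158-23574457, minus strand, 14 CpGs): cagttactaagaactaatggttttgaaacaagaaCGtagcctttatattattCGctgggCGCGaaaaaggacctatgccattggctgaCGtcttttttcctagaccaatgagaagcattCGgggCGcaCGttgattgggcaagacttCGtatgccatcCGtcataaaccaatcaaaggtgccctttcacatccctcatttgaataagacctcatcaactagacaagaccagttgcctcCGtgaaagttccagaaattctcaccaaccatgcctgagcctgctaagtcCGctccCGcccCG
Hist1h4a (chr13:23761200-23761499, minus strand, 27 CpGs): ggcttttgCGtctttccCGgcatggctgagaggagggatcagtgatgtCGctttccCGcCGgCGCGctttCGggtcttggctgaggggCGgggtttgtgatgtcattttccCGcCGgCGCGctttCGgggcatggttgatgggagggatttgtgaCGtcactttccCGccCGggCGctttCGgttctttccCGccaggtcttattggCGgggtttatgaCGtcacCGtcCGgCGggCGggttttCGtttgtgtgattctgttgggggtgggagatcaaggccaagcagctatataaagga

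Of the 67 members, 61 were matched to a RefSeq promoter. They held a median of 11 CpGs, from 3 to 41, against a median of 7 over the 32851 promoters of the table. The CCAAT motif was found on either strand in 52 of the 61 (85.2%) against 37.4% of all promoters, and TATAAA in 34 (55.7%) against 13.6%. CCGG, the site that MspI cuts, was found in only 22 (36.1%) against 52.8%. The 3 testis promoters had 7, 8 and 10 CpGs, within the range of the others, and all 3 held CCAAT.

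The hairpin of histone mRNAs was looked for in the 100 bases after the coding sequence, as a stem of 6 paired bases opening with GG and a loop of 4 bases on the strand of the gene. It was found in 65 of 67 members (97.0%), the exceptions being Hist2h2be and Hist1h2an, and in 0.406% of 44777 annotated coding ends. The first share counts genes with a hairpin at any of their coding ends. The second counts single coding ends, those of the members included. Only 8 different hairpins occurred. The commonest was that of 41 members, and the forms of Hist1h2ba and Hist1h4a are shown beside it to compare the stems, which are in capitals.
Hist1h2bf (chr13:23573765-23573780, minus strand): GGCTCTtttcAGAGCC
Hist1h2ba (chr13:23933730-23933745, minus strand): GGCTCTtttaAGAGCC
Hist1h4a (chr13:23760800-23760815, minus strand): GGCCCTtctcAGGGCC
Hist1h1t had the same 16 bases as Hist1h2ba, and Hist1h2aa the same as Hist1h2bf, so the testis genes shared their hairpins with other members. A match is a description of the letters and not a measured processing site.

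Most histone genes had little methylation in all 4 libraries. Their median level was 2.66% in ESCs of R1 (45 genes, range 0 to 22.5%) and 2.30% in those of Tet/Tet (54 genes, 0 to 37.5%), then 4.32% in neurons of R1 (63 genes, 0 to 91.9%) and 2.02% in those of Tet/Tet (61 genes, 0 to 51.0%). The medians of all protein-coding genes were 19.3%, 23.0%, 61.2% and 9.94% in the same libraries. They rest on unlike sets of genes, with 17854, 18309, 19258 and 15470 genes having a level. In R1 neurons, where methylation was highest, 46 of 63 histone genes (73.0%) were under 10%, against 3.56% of all protein-coding genes and 23.5% of the protein-coding genes no longer than 2 kb. In Tet/Tet neurons the corresponding shares were 86.9%, 50.5% and 62.4%. Of the 632 member CpGs listed in all 4 libraries, 474 (75%) were under 10% in each of them, against 34.8% of the 1545651 CpGs so listed over the genome.

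**Figure D1:**
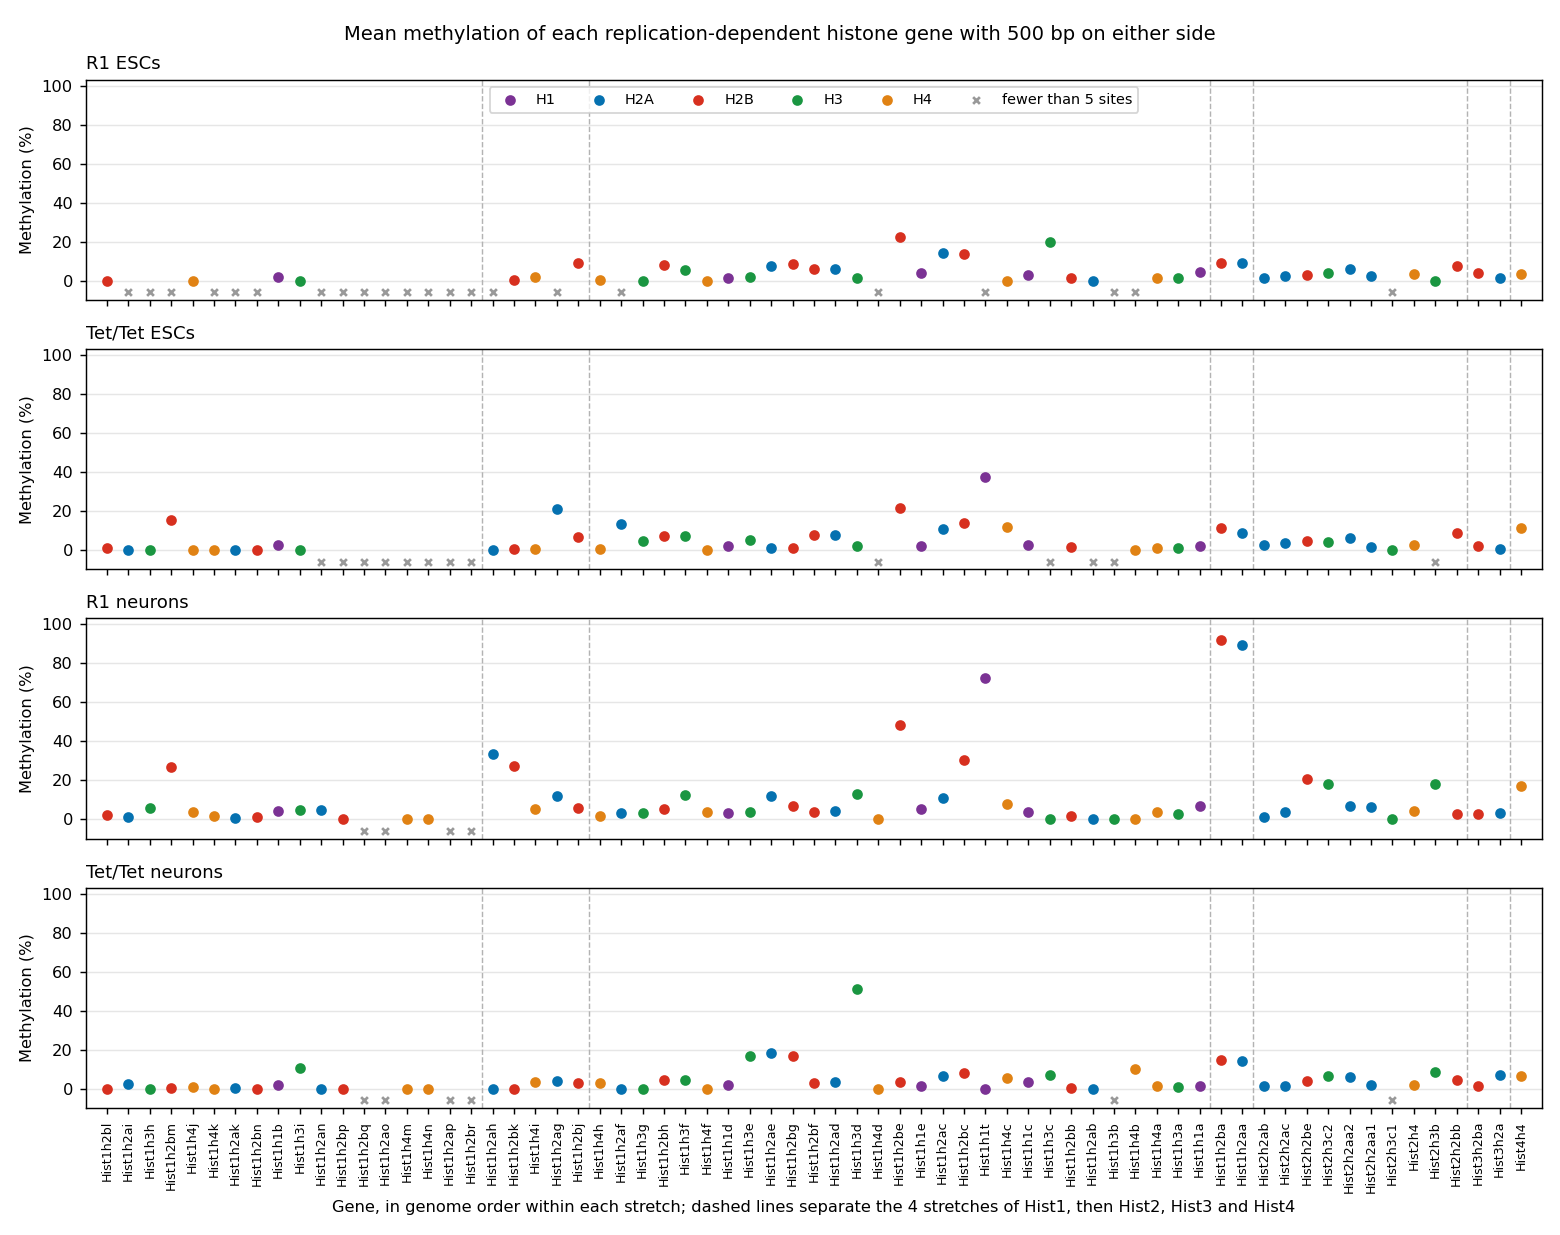
Mean methylation in percent (vertical axis) of each of the 67 genes (horizontal axis, genome order within each stretch), 1 panel per library, coloured by histone type; grey crosses mark genes with fewer than 5 listed sites. Most genes sit near 0 in every panel, while Hist1h2ba, Hist1h2aa and Hist1h1t reach 91.9%, 89.4% and 72.5% in R1 neurons.

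The testis variants stood apart from the other histone genes in R1 neurons. Hist1h2ba, the testis H2B, was at 8.99% ± 5.34 (SD over 23 sites) in ESCs of R1 and 11.5% ± 18.8 (37 sites) in those of Tet/Tet, then 91.9% ± 16.3 (48 sites) in neurons of R1 and 14.9% ± 12.1 (38 sites) in those of Tet/Tet. Hist1h2aa, its divergent H2A partner, was at 9.01% ± 6.06 (18 sites), 8.94% ± 10.1 (25 sites), 89.4% ± 17.5 (35 sites) and 14.4% ± 19.4 (35 sites) in the same order. R1 neurons were thus the high library for both genes, and the other 3 libraries lay within 6 percentage points of each other at each gene. The pair shares its upstream region, with start sites 306 bp apart, and 25 CpGs belong to both windows, so the values of the genes are not independent. Over the 86 CpGs of the whole pair, 57 of the 59 sites listed in R1 neurons were at 75% or above, whereas 41 of the 53 listed in Tet/Tet neurons and all 26 listed in R1 ESCs were under 25%. The 26 sites listed in all 4 libraries ranged from 75.3 to 100% in R1 neurons, from 0 to 18.1% in R1 ESCs, from 0 to 33.3% in Tet/Tet ESCs and from 0 to 33.3% in Tet/Tet neurons, so the R1 neuron range did not overlap those of the others. At the sites with unique surrounding bases the pair was at 90.3% in R1 neurons (41 sites) and 16% in Tet/Tet neurons (36 sites). R1 neurons were also the high library over all protein-coding genes, with a median of 61.2% beside 9.94% for Tet/Tet neurons. How often sites elsewhere in the genome show such a gap was not computed. Among the histone genes the gap was not the pair's alone. Between the neurons Hist1h1t differed by -74.0 points over 5 shared sites and Hist1h2be by -53.8 over 97. The pair differed by -75.6 points at Hist1h2ba and -75.0 at Hist1h2aa. The gap is not shown to set the pair apart from genes at large.

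Hist1h1t, the testis linker histone, had no listed site in R1 ESCs. It was at 37.5% ± 51.8 (8 sites) in Tet/Tet ESCs, 72.5% ± 39.1 (12 sites) in R1 neurons and, over 7 sites, 0% in the Tet/Tet ones. Most of its sites were at the ends of the scale. In Tet/Tet ESCs 5 of 8 were at 0 and 3 at 100%, in R1 neurons 2 of 12 were at 0 and 7 at 100%, and in Tet/Tet neurons all 7 were at 0. At the promoter printed above, Hist1h1t had 6 listed sites with a mean of 66.7% in R1 neurons and 1 site at 0% in Tet/Tet neurons. The promoter of Hist1h2ba had 6 sites with a mean of 93.8% in R1 neurons and 3 with a mean of 9.84% in Tet/Tet neurons, while that of Hist1h4a, with 27 and 26 sites, was at 5.28% and 1.68%.

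CpG islands, stretches rich in CpG that are usually unmethylated, were not used to choose the genes. Of the 67 windows, 64 held CpGs of an island, and the 3 without any were those of Hist1h1t, Hist1h2ba and Hist1h2aa. The observed over expected CpG ratio was 0.405 at Hist1h1t, 0.583 at Hist1h2aa and 0.671 at Hist1h2ba, and the 22 members with the lowest ratios, up to 0.682, included all 3. The mean level in R1 neurons was 21.4% ± 29.8 (SD over 20 genes) for those 22 members, 6.50% ± 9.14 (22 genes) for the 22 in the middle and 6.09% ± 6.44 (21 genes) for the 23 with the highest ratios. The medians were 6.21%, 3.5% and 3.93%, and without the testis variants the first group was at 10.2% ± 12.6 (17 genes) with a median of 5.3%, so much of the contrast in means lay in those 3 genes. In Tet/Tet neurons the 3 testis variants lay at 0 to 14.9%, in a library where the median of all protein-coding genes was 9.94%. Whether the lack of an island accounts for their levels was not tested.

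**Figure D2:**
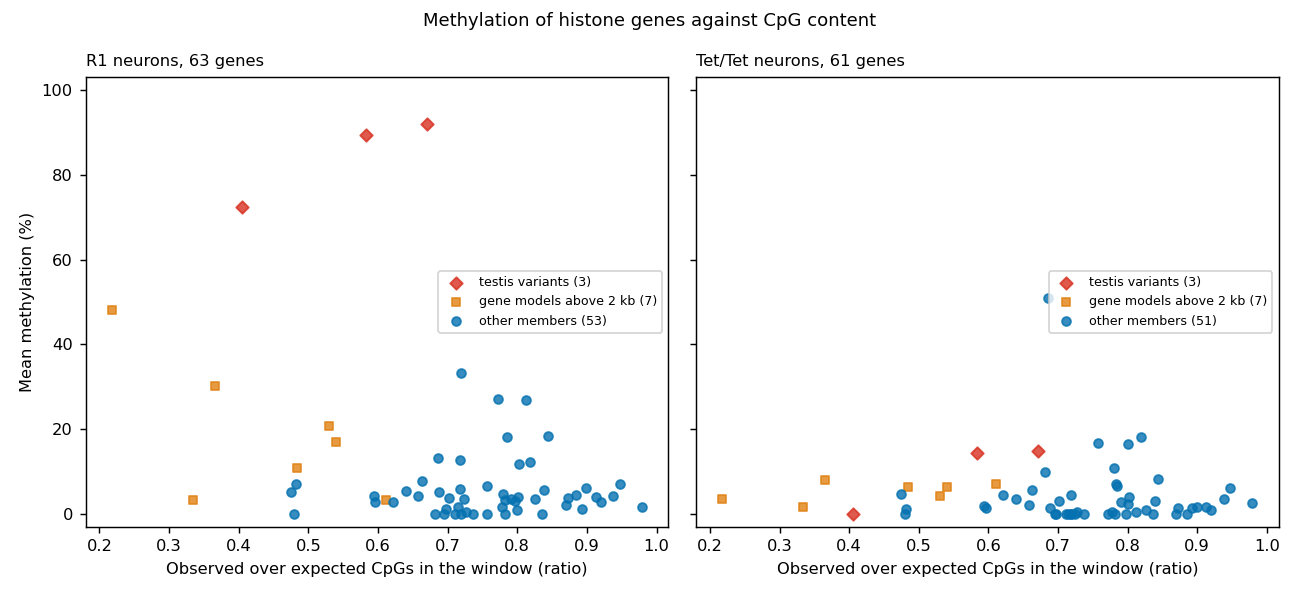
Mean methylation in percent (vertical axis) against the observed over expected CpG ratio of the gene window (horizontal axis) in R1 neurons (left, 63 genes) and Tet/Tet neurons (right, 61 genes). In R1 neurons the 3 testis variants lie between 72.5 and 91.9% at ratios of 0.405 to 0.671, and Hist1h2be, a gene model of 37455 bp, is at 48.2% with the lowest ratio, 0.218; in Tet/Tet neurons Hist1h3d is the high point at 51.0%.

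**Figure D3:**
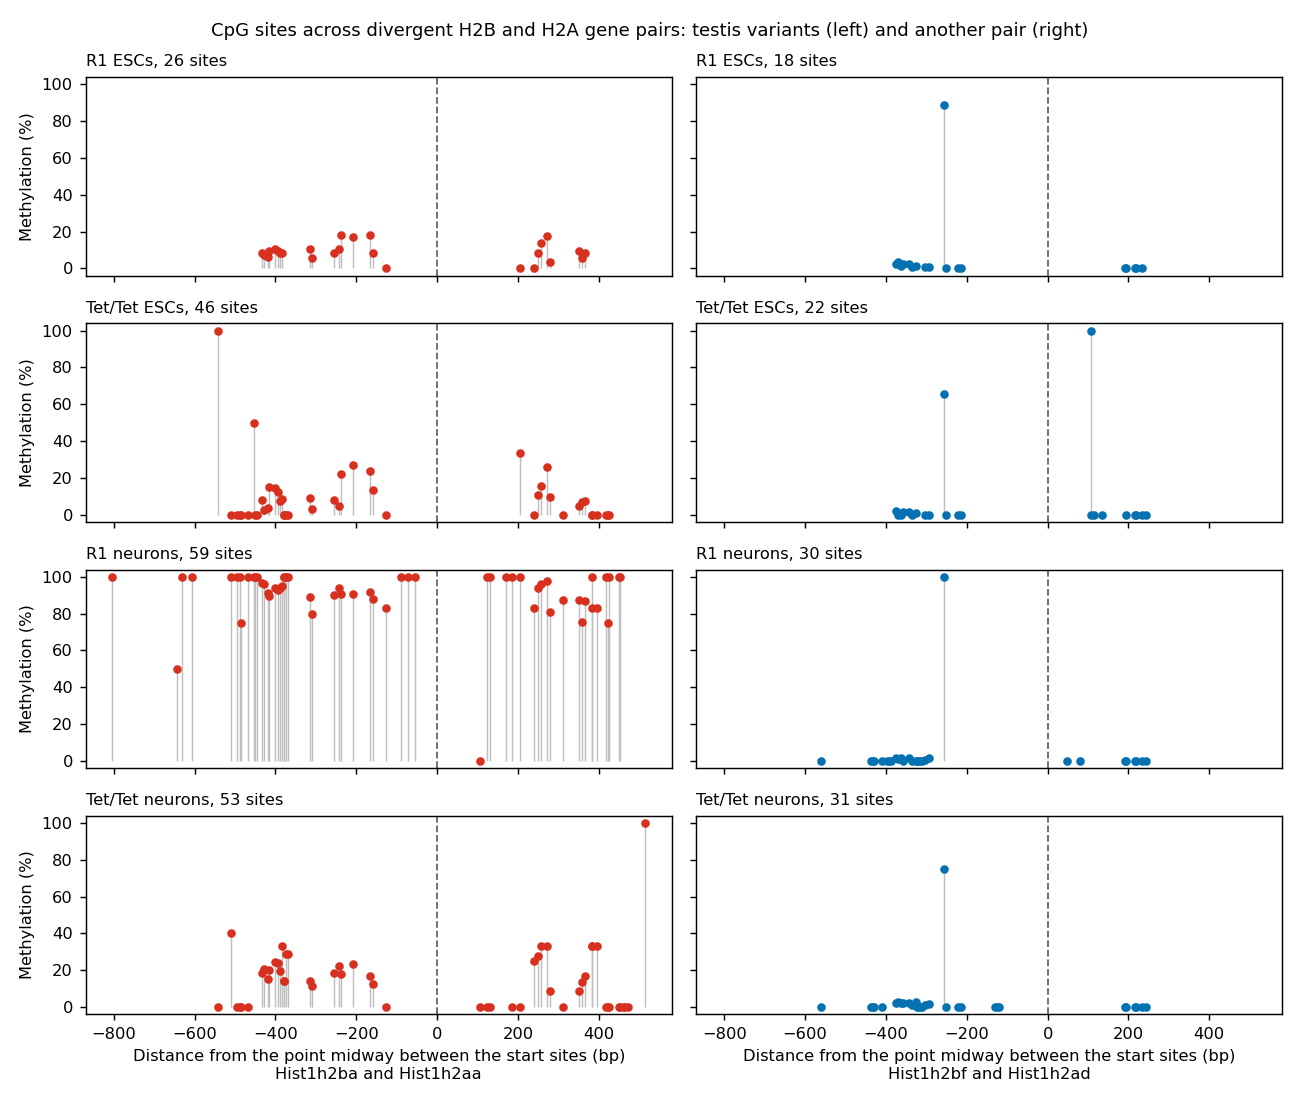
Methylation in percent (vertical axis) of single CpG sites against the distance in bp from the point midway between the start sites of a divergent H2B and H2A gene pair (horizontal axis, dashed line at 0), for the testis pair Hist1h2ba and Hist1h2aa (left) and for Hist1h2bf and Hist1h2ad (right), 1 row per library. The testis pair is high along its length in R1 neurons only, with 57 of 59 sites at 75% or above, while at Hist1h2bf and Hist1h2ad 29 of 30 sites are under 25% in that library and the same single site is high in all 4.

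Divergent H2A and H2B genes are a common layout of the family, and 12 such pairs had start sites within 500 bp of each other. In the region shared by the windows of a pair, the 9 pairs other than Hist1h2ba and Hist1h2aa with at least 5 sites in R1 neurons ranged from 0 to 33.3% with a median of 5.05%, against 89.1% (24 sites) at the testis pair. In Tet/Tet neurons the 9 ranged from 0 to 20% with a median of 3.10%, and the testis pair was at 13.3% (20 sites), inside that range. The pair next in order in R1 neurons was Hist1h2ah and Hist1h2bk at 33.3% (15 sites). It was at 0% in Tet/Tet ESCs (6 sites) and Tet/Tet neurons (14 sites) and had no shared listed site in R1 ESCs.

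Between histone types, the order of mean levels in R1 neurons was H2B (17.3% ± 24.4, SD over 16 genes), H1 (16% ± 27.7, 6 genes), H2A (12.1% ± 22.1, 16 genes), H3 (6.94% ± 6.86, 12 genes) and H4 (3.77% ± 4.68, 13 genes). Each type differed from the next by less than the spread over its own genes. Without the testis variants H2B was at 12.3% ± 14.6 (15 genes), H2A at 6.91% ± 8.33 (15 genes) and H1 at 4.75% ± 1.47 (5 genes), so that H1 came after H3. In R1 ESCs the means were 7.08% for H2B, 5.00% for H2A, 3.82% for H3, 2.84% for H1 and 1.25% for H4. In Tet/Tet ESCs they were 8.07% for H1, 6.87% for H2B, 5.48% for H2A, 2.77% for H4 and 2.71% for H3, and without Hist1h1t the H1 mean was 2.18%. In Tet/Tet neurons H3 was highest at 10.6% ± 15.1 (10 genes), with Hist1h3d at 51.0%, and the other types lay between 1.60% for H1 and 4.20% for H2A.

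The 5 somatic H1 genes, Hist1h1a to Hist1h1e, have windows whose CpGs are mostly unique (85.5 to 100%). Their levels lay between 1.29 and 4.42% in ESCs of R1 and 1.87 and 2.51% in those of Tet/Tet, then 3.25 and 7.06% in neurons of R1 and 1.24 and 3.19% in those of Tet/Tet. Hist1h1c, for example, was at 2.66% (45 sites), 2.49% (62 sites), 3.90% (80 sites) and 3.19% (76 sites). Over each library's own sites the ranges in the neurons were only just apart. The lowest in R1 neurons was Hist1h1d at 3.25%, and the highest in Tet/Tet neurons was Hist1h1c at 3.19%. Of all protein-coding genes, 92.7% were lower in Tet/Tet than in R1 neurons by at least 10 points. The range in R1 ESCs overlapped those of the other libraries. Over the sites listed in both neuron libraries, however, Hist1h1d was higher in Tet/Tet, at 2.19% against 1.37% (45 sites). Hist1h1a, Hist1h1b, Hist1h1c and Hist1h1e then differed by -6.16, -1.71, -0.276 and -1.48 points between Tet/Tet and R1 neurons. H4 genes, which encode the same protein from many copies, were at or under 11.9% in every library in which they had a level, except Hist4h4 at 17.1% in R1 neurons, with Hist1h4a at 1.16% (49 sites), 0.969% (57 sites), 3.96% (66 sites) and 1.63% (66 sites).

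At the low end, 9 members had a level of 0 in R1 neurons: Hist1h4n, Hist1h4m, Hist1h4b and Hist1h4d (H4), Hist1h2bp (H2B), Hist1h2ab (H2A), and Hist1h3b, Hist1h3c and Hist2h3c1 (H3), with 7 to 26 listed sites each. At the high end, after the testis variants, were Hist1h2be at 48.2% (132 sites), Hist1h2ah at 33.3% (15 sites) and Hist1h2bc at 30.2% (61 sites). The small clusters on other chromosomes were low too. Hist3h2ba, an H2B, was at 3.82%, 1.80%, 2.92% and 1.41% in the same order of libraries (32, 40, 52 and 52 sites). Hist3h2a, an H2A, was at 1.35%, 0.6%, 3.43% and 7.01% (21, 29, 50 and 48 sites), and Hist4h4, an H4, at 3.39%, 11.3%, 17.1% and 6.47% (24, 27, 56 and 49 sites). Neither Hist3 gene exceeded 7.01% in any library, and Hist4h4 was highest in R1 neurons. The mean of the 10 Hist2 genes was 3.27% ± 2.33 (9 genes) in ESCs of R1 and 3.71% ± 2.57 (9 genes) in those of Tet/Tet, then 8.28% ± 7.80 (10 genes) in neurons of R1 and 4.04% ± 2.59 (9 genes) in those of Tet/Tet, with Hist2h2be the highest in R1 neurons at 20.8%.

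Several of these values differed along the gene model. Hist1h2be has a model of 37455 bp, whose end overlaps Hist1h1e, and Hist1h2bc of 8710 bp. In R1 neurons Hist1h2be was at 0% over the 43 sites within 500 bp of its coding sequence and at 71.4% over the 89 sites farther away. Hist1h2bc was at 3.13% (35 sites) near the coding sequence and 66.6% (26 sites) beyond, and Hist4h4 at 2.01% (42 sites) and 62.3% (14 sites). Hist2h2be was at 18.3% (47 sites) near the coding sequence and at 50.0% over only 4 sites beyond, so most of its listed sites lay near. Over all members, the 187 listed sites more than 500 bp from any member's coding sequence were at 55.3% in R1 neurons, and the 1609 within it at 8.52%. In Tet/Tet neurons the same classes were at 8.58% (165 sites) and 3.73% (1499 sites).

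Inside CpG islands the member sites were at 2.74% in ESCs of R1 (540 sites) and 3% in those of Tet/Tet (696 sites), then 4.02% in neurons of R1 (1179 sites) and 3.53% in those of Tet/Tet (1122 sites). Outside islands, leaving out the testis windows, they were at 8.69% (189 sites), 10.4% (249 sites), 23.9% (546 sites) and 4.66% (482 sites). The libraries were therefore close to each other inside islands and differed outside them, with R1 neurons highest. In the short members of at most 2 kb, leaving out the testis variants, coding sites were at 4.34% (749 sites), sites in the 500 bp upstream at 5.85% (502 sites) and sites in the 500 bp downstream at 10.7% (153 sites) in R1 neurons. In the testis variants the coding sites were at 91.5% (54 sites) and the upstream sites at 84.3% (37 sites) in that library, so both parts of those genes were high.

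For the comparisons between libraries, a gene's levels were taken over the sites listed in both libraries, at least 5 of them, and genes differing by 10 percentage points or more were counted. Tet/Tet was set against R1 to ask what accompanies the altered Dnmt1 alleles, and neurons against ESCs to ask what accompanies differentiation.

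In ESCs, Tet/Tet and R1 were close at the histone genes. Of the 40 members compared, 1 was higher in Tet/Tet ESCs by at least 10 points, against 4.32% of 17527 protein-coding genes, and 0 were lower, against 1.65%. The median difference was 0.16 points over members and 0.66 points over all genes. The member counted was Hist1h3g, an H3 gene, at 19.4% in Tet/Tet ESCs and 0% in R1 ESCs over 6 sites, with an SD of the difference of 39.7 points over sites. The next largest rises in value were 3.41 points at Hist1h2aa, 3.04 at Hist1h2ba, 2.00 at Hist1h2ae and 1.95 at Hist1h2bl. The largest differences in the other direction were -2.64 points at Hist1h2be, -2.19 at Hist1h1a, -1.93 at both Hist1h2bf and Hist1h2ad, whose shared sites are the same, and -1.56 at Hist3h2ba. All of these were smaller than the SD of the difference over the sites of the gene.

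In neurons, the great majority of genes were lower in Tet/Tet than in R1, and most histone genes were low in both. Of the 61 members compared, 11 were lower in Tet/Tet neurons by at least 10 points, against 92.7% of 15213 protein-coding genes, and 3 were higher, against 0.0263%. The median difference was -1.48 points over members, -36.8 over genes of at most 2 kb and -45.9 over all genes. Over the sites compared the members averaged 11.4% in R1 and 4.42% in Tet/Tet neurons, and all genes 56.0% and 10.2%.

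The 11 lower members comprised the 3 testis variants, 3 genes with models above 2 kb and 5 others. Hist1h2ba was at 90.9% in R1 and 15.3% in Tet/Tet neurons over 37 shared sites, a difference of -75.6 points (SD 18.0 over sites), and it was lower in Tet/Tet at 36 of them and equal at 1. Hist1h2aa was at 88.0% and 13.0% over 31 sites, a difference of -75.0 points (SD 20.9), and Hist1h1t at 74.0% and 0% over 5 sites, a difference of -74.0 points (SD 43.4). No site of the 3 genes was higher in Tet/Tet neurons. Among the long models Hist1h2be differed by -53.8 points (97 sites), Hist1h2bc by -25.3 (46 sites) and Hist2h2be by -17.5 (45 sites). The other lower members were Hist1h2ah at -23.1 points (13 sites), Hist1h2bk at -21.6 (22 sites), Hist1h2bm at -21.5 (18 sites), Hist2h3b at -13.9 (12 sites) and Hist1h3h at -10.4 (8 sites), of which the first pair share a promoter region. Just outside the limit was Hist4h4 at -9.57 points. With the window set to 500 bp around the coding sequence, 8 members were lower, and Hist1h2be, Hist1h2bc and Hist2h3b were no longer among them. Hist1h2be was then at 0% in both libraries (27 sites), and Hist1h2bc at 4.39% in R1 and 5.46% in Tet/Tet neurons (25 sites). Without the flanks Hist2h3b was at 0% in R1 and 8.33% in Tet/Tet neurons over 8 sites, the opposite direction.

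The 3 members higher in Tet/Tet neurons lie next to each other in the third stretch of Hist1. The windows of Hist1h2ae and Hist1h2bg share 59 CpGs, of which 20 were listed in Tet/Tet neurons and 11 in R1 neurons. The values of these genes are therefore not independent. Hist1h2bg, an H2B, was at 25% against 0% over 14 sites, its divergent partner Hist1h2ae, an H2A, at 29.2% against 6.94% over 12 sites, and Hist1h3e, an H3, at 16.6% against 5.38% over 27 sites. The SD of the difference over sites was 32.5, 44.0 and 42.5 points, larger than each difference. The direction was not stable for 2 of them. Over the 5 sites of Hist1h2ae listed in all 4 libraries Tet/Tet neurons were lower, at 0% against 13.3%, and without the flanks of 500 bp Hist1h3e was at 6.72% against 6.93% over 18 sites. Most CpGs of their windows are repeated elsewhere in the genome, with 18.6%, 18.3% and 23.4% unique at Hist1h2bg, Hist1h2ae and Hist1h3e. At the unique sites Hist1h3e was at 1.63% in R1 neurons (17 sites) and 29.6% in Tet/Tet neurons (11 sites), and at its repeated sites at 5.88% (20 sites) and 10.0% (22 sites). Hist1h3d, with the highest level of any member in Tet/Tet neurons (51.0% over 14 sites), was at 26.7% in Tet/Tet neurons and 21.2% in R1 neurons over the 8 sites listed in both, so much of its high level lay at sites not listed in R1 neurons. Hist3h2a, at a difference of 2.62 points over 44 sites, had the fifth largest value in this direction after Hist1h3d at 5.51. Whether reads of near-identical copies were assigned to these genes was not tested.

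**Figure D4:**
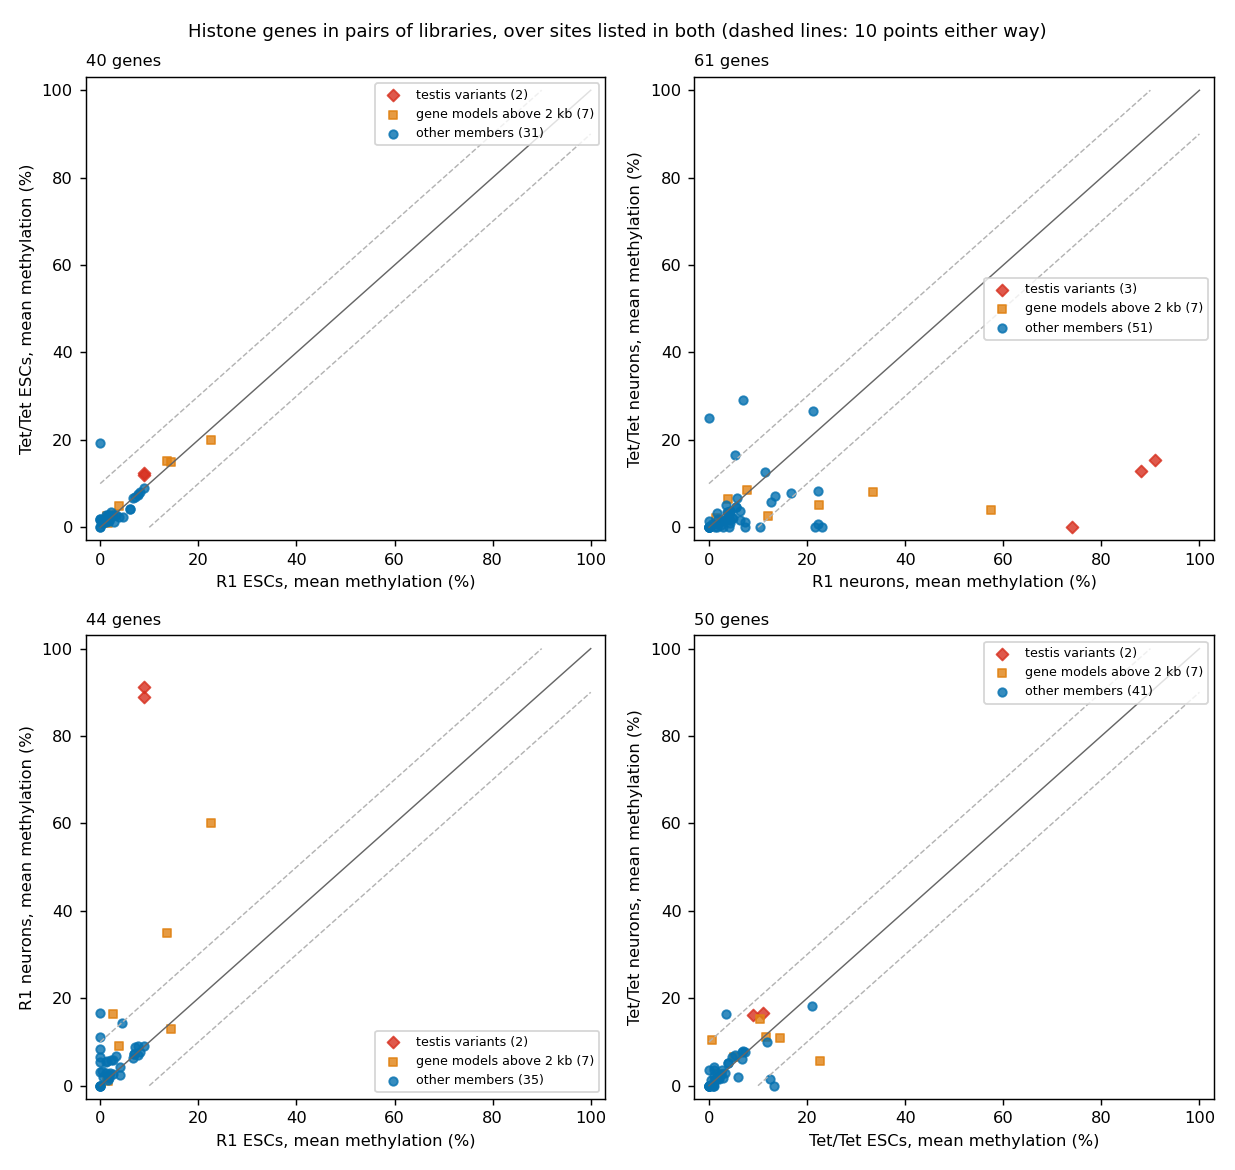
Mean methylation in percent of each member in pairs of libraries, over sites listed in both: Tet/Tet ESCs against R1 ESCs (40 genes), Tet/Tet neurons against R1 neurons (61), R1 neurons against R1 ESCs (44) and Tet/Tet neurons against Tet/Tet ESCs (50); the solid line marks equal levels and the dashed lines 10 points either way. The testis variants lie far from the line in the panels that hold R1 neurons, at 88.0 and 90.9% for the pair in the comparison of the neurons, and close to it in the other panels.

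Between R1 neurons and R1 ESCs, 8 of 44 members were higher in neurons by at least 10 points, against 76.7% of 17747 protein-coding genes, and 0 were lower, against 0.0563%. The median difference was 1.45 points over members and 22 over all genes. Hist1h2ba went from 8.99% in R1 ESCs to 91.3% in R1 neurons over 23 sites, a difference of 82.3 points (SD 6.02 over sites), and Hist1h2aa from 9.01% to 88.9% over 18 sites, a difference of 79.8 points (SD 6.71). All 23 and all 18 sites were higher in neurons. The remaining 6 were Hist1h2be (37.5 points, 35 sites), Hist1h2bc (21.2, 20 sites), Hist1h3g (16.7, 6 sites), Hist2h2be (13.8, 25 sites), Hist1h4f (11.1, 12 sites) and Hist1h1a (10.0, 21 sites). The largest differences in the other direction were small, with -1.63 points at Hist1h1e, -1.40 at Hist1h2ac, -0.566 at Hist2h2bb, -0.384 at Hist2h3c2 and -0.368 at Hist3h2a. Hist1h1t could not be compared, since it had no site in R1 ESCs. With the window set to 500 bp around the coding sequence, 5 members were higher, and Hist1h2be, Hist1h2bc and Hist1h1a were no longer among them, with Hist1h1a at a difference of -0.278 points over 17 sites.

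Between Tet/Tet neurons and Tet/Tet ESCs, 1 of 50 members was higher in neurons by at least 10 points, against 0.295% of 14599 protein-coding genes, and 3 were lower, against 56.4%. The median difference was 0 over members and -12.4 points over all genes. The higher member was Hist1h3d (12.7 points, 7 sites), where 1 site was higher and 6 were lower, so its mean rested on a single site. Over the 6 sites of Hist1h3d listed in all 4 libraries the difference was -1.81 points. The testis pair differed by 7.23 points at Hist1h2aa (25 sites) and 5.58 at Hist1h2ba (34 sites), below the limit of 10 points, but Hist1h2ba passed it at 10.3 points (25 sites) without the flanks and at 10.8 (24 sites) in MspI fragments. On the same side were Hist3h2a at 9.77 (25 sites) and Hist1h2ac at 4.84 (10 sites). The lower members were Hist1h2be (-17.0 points, 44 sites), Hist1h2af (-13.3, 5 sites) and Hist1h2bm (-10.9, 8 sites), followed by Hist1h3e at -3.95 and Hist1h2bc at -3.65. The comparisons share libraries with each other, so none of them is a repeat of another.

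Genes that lie among the histone genes were not as low, most clearly in R1 neurons. Between the first and last member on chromosome 13 there are 49 other protein-coding genes, of which 36 are Vmn1r genes, vomeronasal receptors of the olfactory system. In R1 neurons the 23 of them with at least 5 sites had a median of 85.7% (range 18.6 to 100%), and 0 were under 10%. The 13 genes other than Vmn1r had a median of 63.4%, with Abt1 at 22.2% (47 sites), Btn1a1 at 18.6% (62 sites), Hfe, a regulator of iron uptake, at 67.6% (22 sites) and Slc17a4, a solute carrier, at 99.0% (44 sites). Trim38, also in this region, was at 84.6% (24 sites). In Tet/Tet neurons the 20 neighbours with a level had a median of 9.68%. In ESCs their median was 6.95% for R1 (11 genes) and 9.0% for Tet/Tet (13 genes). The histone genes were at 2.66% and 2.30% there, and all protein-coding genes at 19.3% and 23.0%. Gene length was not matched between neighbours and members. Of 19 neighbours compared between the neurons, 18 were lower in Tet/Tet by at least 10 points, a share of 94.7% beside the 92.7% of all protein-coding genes, so in this they were like other genes. Their median difference was -64.5 points, against -1.48 for the histone genes and -45.9 for all genes. The mean difference was -77.0 points over the 6 Vmn1r genes compared and -49.7 over the 13 other neighbours. Over the 3 testis variants it was -74.8 points, between these values.

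Other genes of histone biology were taken from lists drawn up for this purpose. The 14 replication-independent histone variants, whose supply is not limited to S phase, had a median of 3.47% in ESCs of R1 (13 genes) and 6.83% in those of Tet/Tet (14 genes). In neurons the median was 20.5% for R1 (14 genes) and 8.06% for Tet/Tet (12 genes). The list was mixed in R1 neurons. H2afz, H1fx and H2afx were at 2.57%, 2.21% and 2.83%, H2afy, which encodes macroH2A1, was at 72.3%, and the germ-cell linker histones H1foo (oocyte), H1fnt and Hils1 (testis) were at 92.7%, 93.4% and 94.9%. H1foo, H1fnt and Hils1 were at 17.9%, 20% and 23.1% in Tet/Tet neurons, against 14.9% at Hist1h2ba. In R1 ESCs, however, H1foo was at 63.5% and H1fnt at 43.3%, against 8.99% at Hist1h2ba. Of 12 variants compared between the neurons, 7 (58.3%) were lower in Tet/Tet by at least 10 points and 0 were higher, beside 92.7% and 0.0263% of all protein-coding genes.

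The 14 genes for the expression and 3′ end processing of histone mRNAs had a median of 33.1% in R1 neurons, with Slbp, which binds the hairpin, at 25.5% (123 sites), Npat, the coactivator of histone transcription, at 28.8% (127 sites) and Ccne2, a cyclin that acts with Cdk2 on entry into S phase, at 7.35% (138 sites). Of the 12 with sites in both neuron libraries, 9 (75%) were lower in Tet/Tet by at least 10 points, and 0 were higher, beside the same shares of all genes. The 8 histone chaperones had a median of 47.1% in R1 neurons, and 6 of 6 compared were lower in Tet/Tet neurons, by 32.2 to 44.5 points, beside 92.7% and a median of -45.9 points over all genes. In ESCs, H1fnt was higher in Tet/Tet by 10.0 points, and no other gene of these 3 lists differed by at least 10 points. H2afx, H2afy2, Hinfp, Npat, Asf1a and Asf1b, which lie on chromosomes 8, 9 and 10, had 0 listed sites in the Tet/Tet neuron table used here, against 100 to 341 in R1 neurons, and enter no comparison with that library. Cdk2, also on chromosome 10, had 71 listed sites in Tet/Tet neurons, so not all of that chromosome was missing. No replication-dependent histone gene described here lies on those chromosomes.

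**Figure D5:**
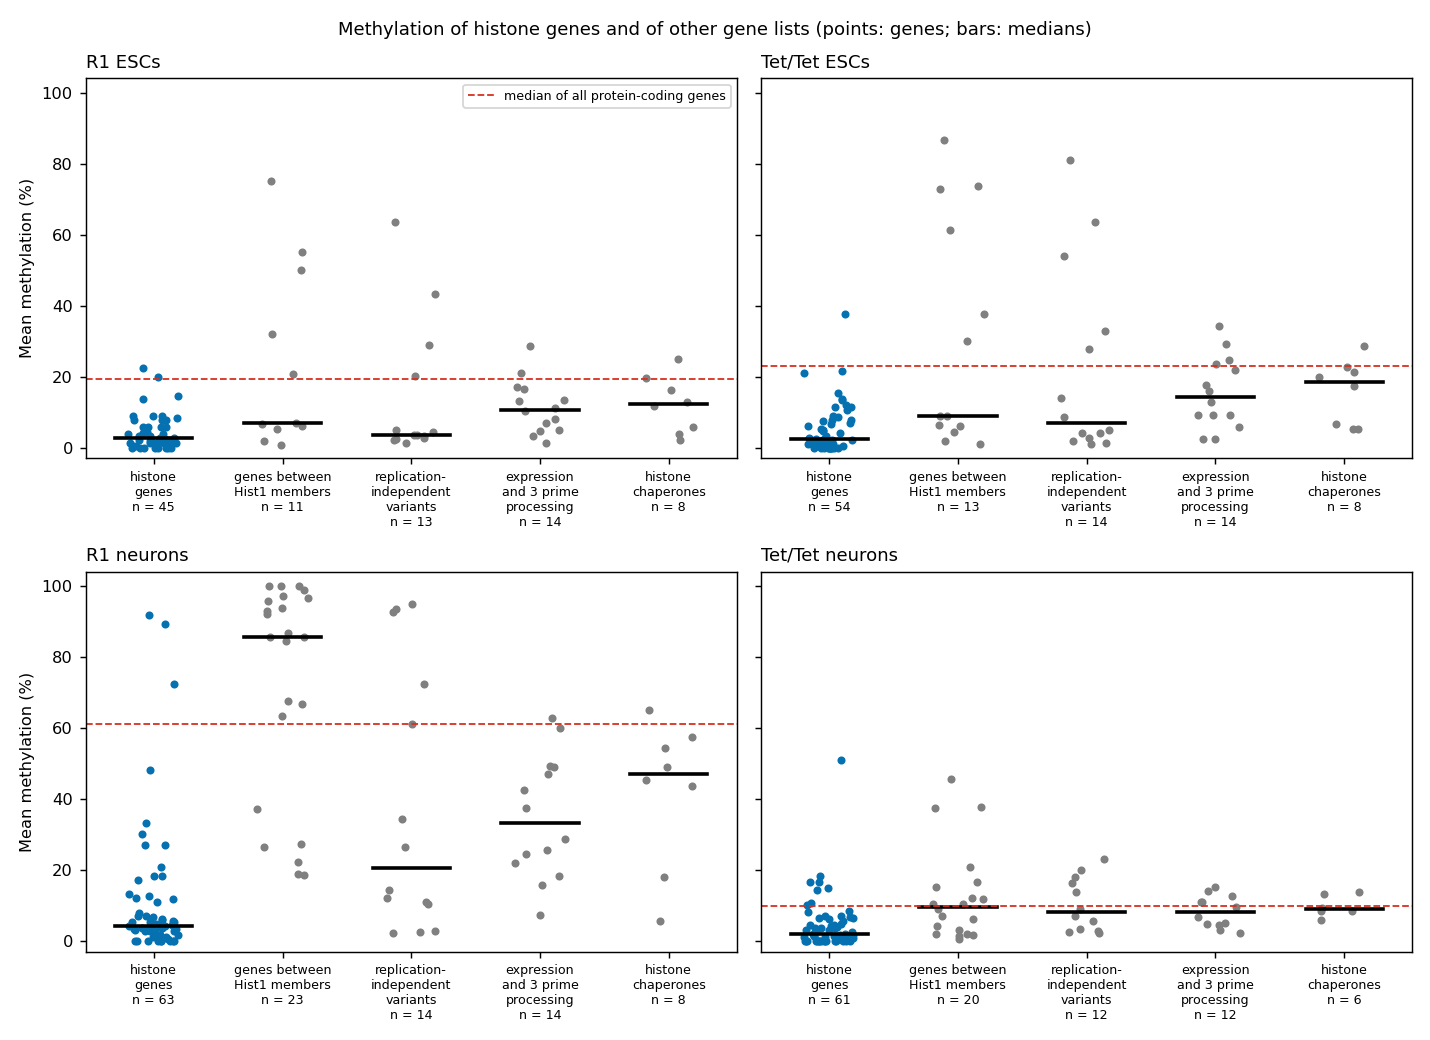
Mean methylation in percent (vertical axis) of single genes (points) in the histone family, in the genes between Hist1 members and in 3 lists of histone biology, 1 panel per library; black bars are medians and the dashed line is the median of all protein-coding genes. In R1 neurons the histone genes have a median of 4.32% and the genes between them 85.7%; points are spread sideways only so that they can be seen.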

How the data were processed

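RRBS was carried out on ESCs and neurons of the lines R1 and Tet/Tet, with 1 library each. The authors trimmed reads with Trim Galore 0.6.4, checked them with FastQC 0.11.8, mapped them to mm10 with Bismark 0.19.0 and called CpGs with MethylDackel 0.3.0. The deposited tables give percent methylation per CpG, without read counts, so depth per site is unknown, no interval was computed, and a level resting on few reads weighs as much as any other.

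Levels were computed in Python 3.11.15 with numpy 2.4.6, pandas 2.3.3 and numba 0.67.0, and plotted with matplotlib 3.10.9. Gene models were from GENCODE M21 and promoters from RefSeq (GRCm38.p6). A gene's level is the mean over listed CpGs in the gene and 500 bp on either side, with at least 5 sites. Comparisons used sites shared by the libraries compared, and genes differing by 10 points or more were counted. CpG islands were runs over 200 bp whose GC share reached 50% and whose ratio of observed to expected CpGs passed 0.6. Level scripts were tested on simulated data. No test was made, since each condition has 1 library.

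Genes named are the testis variants, the 5 members with the largest difference each way in each comparison, the 5 highest and 5 lowest in R1 neurons (9 tied at 0), and Hist3 and Hist4. Others named illustrate a group, or passed the limit of 10 points, and were chosen after their values were seen. The members and lists were chosen with earlier results of these data known.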

Additional observations from a re-analysis of the deposited data

Results flagged for a closer look

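Of the 40 members compared between Tet/Tet and R1 in both cell types, 17 had differences of opposite sign in ESCs and neurons, and 6 of these reached 10 points in 1 of them. The share of all protein-coding genes with opposite signs was not computed. Their median difference was 0.66 points in ESCs and -45.9 points in neurons, so the count does not set the members apart. The testis H2B gene Hist1h2ba differed by 3.04 points in ESCs and -75.6 points in neurons, and its H2A partner Hist1h2aa by 3.41 and -75.0 points. Hist1h2bc differed by 1.42 points in ESCs and -25.3 in neurons, Hist1h2bk by 0.8 and -21.6, and Hist2h2be by 0.229 and -17.5, all 3 encoding H2B. Hist1h3e, an H3 gene, went the other way, with -0.227 points in ESCs and 11.2 in neurons. The neuron values of Hist1h2bc and Hist1h3e changed sign under other windows. The difference between cell types was not tested, since there is 1 library of each kind, and the ESC values are smaller than their spread over sites.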

How the results depend on the processing

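No paired analysis was possible because each condition has 1 library. Of 64 counts recomputed under alternatives, 39 stayed within 1.5 times the reported count and 25 did not, and of 148 levels 142 moved by less than the spread over genes. The 500 bp around the coding sequence, unique sites and no minimum number of sites were added after seeing the data. Hist1h2ba and Hist1h2aa were counted in both comparisons of R1 neurons under every alternative run. In ESCs the member higher in Tet/Tet (1) became 0 with at least 10 sites, sites listed in all 4 libraries, MspI fragments, a limit of 20 points or unique sites. In neurons the 3 higher (Hist1h2bg, Hist1h2ae and Hist1h3e) became 1 with the gene only and 0 with sites listed in all 4 libraries or in MspI fragments, and the 11 lower became 7 and 6 with those site sets. The counts also moved the other way. At unique sites 15 of the 44 members compared were lower, against 11 of 61 reported, and 2 were higher. Around the start site 4 were higher. With sites listed in all 4 libraries Hist1h2ae turned to -13.3 points, with the gene only Hist1h3e turned to -0.205 and Hist2h3b to 8.33, and Hist1h2bc turned to 0.0552 around the start site and 1.07 around the coding sequence. For R1 neurons against R1 ESCs the 8 higher became 5 around the start site, in MspI fragments or around the coding sequence, and 4 at 20 points, and Hist1h1a turned to -0.984 around the start site and -0.278 around the coding sequence. For Tet/Tet neurons against Tet/Tet ESCs the 3 lower became 1 with the gene only, the start site, at least 10 sites or sites listed in all 4 libraries, and 0 in MspI fragments or at 20 points, and the 1 higher became 0 around the start site or coding sequence, with at least 10 sites, sites listed in all 4 libraries or 20 points. That member, Hist1h3d, was counted under no alternative: it turned to -2.09 points with the gene only and to -1.81 around the start site or coding sequence, at sites listed in all 4 libraries or in MspI fragments. The member higher instead was Hist1h2ba with the gene only (10.3 points) and in MspI fragments (10.8 points), and Hist3h2a at unique sites. Of the differences of single counted or testis genes recomputed, 160 kept their side of the limit, 35 crossed it without turning and 12 turned. The testis variants in R1 ESCs (9%) were at 8.81% with the gene only, 10.8% in MspI fragments, 9.03% at unique sites and 8.85% with each site counted once. In Tet/Tet neurons they moved from 9.77% to 19.1% in MspI fragments, and H1 moved from 1.60% to 3.30% with sites listed in all 4 libraries. Beyond the alternatives' own use of fewer sites or genes, the cause was not tested.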

Other observations

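Of the 632 member CpGs listed in all 4 libraries, 8 (1.27%) were at 50% or above in each of them, against 1.99% of such CpGs over the genome. These were chosen after their values were seen. The surrounding 50 bases occurred elsewhere in the converted genome at 7 of the 8. Over all member CpGs only 46.2% had unique bases, and the share among the 632 was not computed. In the region shared by Hist1h2bf and Hist1h2ad the site at position 23574031 of chromosome 13 was at 88.9% in ESCs of R1 and 65.4% in those of Tet/Tet, then 100% in neurons of R1 and 75% in those of Tet/Tet. The site with unique bases, in the window of Hist2h2bb at position 96269714 of chromosome 3, was at 85.7%, 87.5%, 83.3% and 75% in the same order. Another 55 sites were at 50% or above in R1 neurons only, and 26 of them lay in the Hist1h2ba and Hist1h2aa pair. The share of such sites over the genome was not computed, so this count does not set the members apart. R1 neurons had the highest median over all protein-coding genes too, at 61.2%.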
